A study of Mus musculus with 4 samples.

Results

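The genes of lipoprotein lipase, the perilipins and lipid storage were followed in the stomach corpus of mice given HDT. The set holds 10 genes of the 52125 named rows in the deposited table: Lpl, Plin1, Plin2, Plin3, Plin4, Plin5, Pnpla2, Lipe, Cd36 and Fabp4. They were taken by symbol, and the list was chosen with earlier results of these data known. RNA came from 2 HDT mice and 2 vehicle mice, all C57BL/6 wild type and 6 to 8 weeks old, and each library held the corpus of 1 mouse at 48 hr. HDT mice had received 1 intraperitoneal dose of 5 mg per 20 g of body weight, given to damage the stomach, and the labels leave the abbreviation unexplained, although in gastric injury work it usually stands for high-dose tamoxifen. The control libraries are titled vehicle while the protocol text calls such mice untreated, so whether they were injected is not settled by the labels.

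As background, lipoprotein lipase is a secreted enzyme that splits triglyceride in circulating lipoproteins at the capillary wall. Cells take up the released fatty acids with the help of the membrane protein CD36 and carry them on fatty acid-binding proteins such as FABP4. Inside cells triglyceride is kept in lipid droplets, whose surface is coated by perilipins, and it is released again by adipose triglyceride lipase (the product of Pnpla2) and hormone-sensitive lipase (the product of Lipe). PLIN1 is the main coat of fat cell droplets, PLIN2 and PLIN3 are found in most tissues, and PLIN5 is known from tissues that oxidise much fat.

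Libraries held 41536686 to 42674985 recovered reads. Levels are given as CPM, counts scaled to a common library size after TMM, a correction between libraries computed from the genes with the least extreme changes. HDT was compared with vehicle by limma over 18285 genes, and a gene is called where its Benjamini-Hochberg adjusted p is under 0.05. Of all tested genes 37.7% were called, 18.4% higher and 19.3% lower in HDT, and 70.8% had groups that did not overlap. With the values as deposited the tested genes had a median log2 fold change of 0.526, against -0.001 with TMM, so directions of modest changes rest on the scaling. Where a fit leaves out 1 library, the lone mouse left in that group has no spread of its own and is assumed to vary like the 2 mice of the other group. The corpus identity of the libraries was visible in the markers of acid-secreting parietal cells, which summed to 5826 and 5956 CPM in HDT libraries and to 16417 and 17540 CPM in vehicle libraries. Of these sums Car2, which was not called, made up 2519 and 3029.9 CPM in HDT and 2395 and 2269 CPM in vehicle. The proton pump genes Atp4a and Atp4b had log2 fold changes of -2.87 and -3.2 (limma adjusted p = 5.4e-06 and 8.44e-07). In bulk RNA, fewer cells of a type and less RNA per cell cannot be told apart.

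All 10 genes passed the filter on low reads. Of these, 7 were lower in HDT, against 19.3% of all tested genes, 1 was higher, against 18.4%, and 2 had no call. The groups did not overlap for 8 of the 10 genes, against 70.8% of all tested genes. The median log2 fold change of the 10 genes was -0.58, and with the values as deposited it was -0.06, with 2 genes called higher and 4 lower. Lpl, Plin5, Cd36 and Plin4 were called lower and Plin2 was called higher under both scalings.

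**Figure D1:**
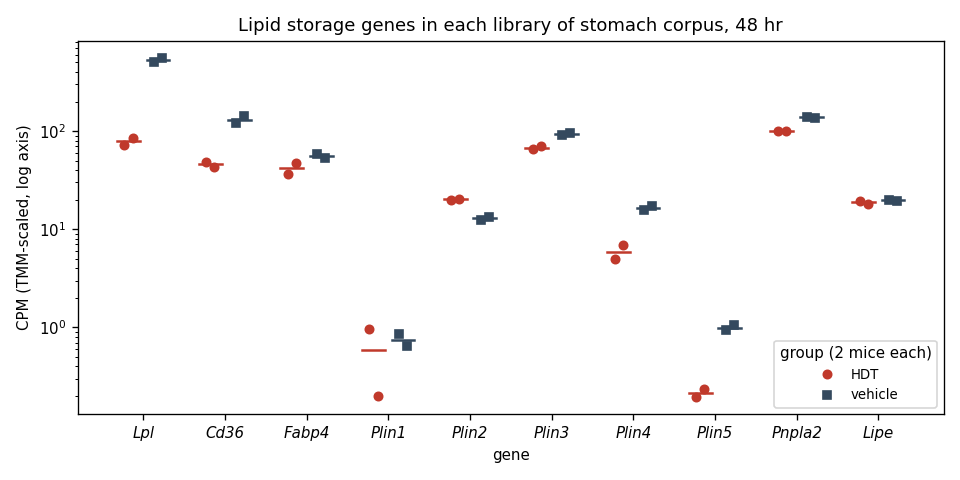
CPM of each gene (log axis) in the 2 HDT libraries (circles) and the 2 vehicle libraries (squares), with a line at each group's mean. Lpl shows the widest gap, at 72.2 and 85.9 CPM in HDT against 509 and 560.4 CPM in vehicle, and Plin2 is the gene whose HDT points both lie above vehicle.

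RefSeq start sites (GRCm38.p6) were at hand for 8 of the 10 genes, and Lpl and Fabp4 were without an entry. The sequences before the start sites of Plin2, Plin5 and Cd36 are shown because these genes changed in opposite directions while each carries the hexamer AGGTCA, which nuclear receptors such as the PPARs, known regulators of lipid genes, bind in pairs. Each reads 5′ to 3′ on the gene's strand, begins 250 bases before the start site and leaves out bases inside an annotated exon of the gene. Capitals mark that hexamer, the CCAAT box and the GC box GGGCGG, on either strand.
Plin2, chr4:86670061-86670309, minus strand: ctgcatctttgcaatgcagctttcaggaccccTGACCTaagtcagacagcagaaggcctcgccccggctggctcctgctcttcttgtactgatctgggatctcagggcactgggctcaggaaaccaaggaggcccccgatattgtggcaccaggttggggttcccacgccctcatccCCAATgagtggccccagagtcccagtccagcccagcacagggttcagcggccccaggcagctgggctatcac
Plin5, chr17:56117597-56117798, minus strand: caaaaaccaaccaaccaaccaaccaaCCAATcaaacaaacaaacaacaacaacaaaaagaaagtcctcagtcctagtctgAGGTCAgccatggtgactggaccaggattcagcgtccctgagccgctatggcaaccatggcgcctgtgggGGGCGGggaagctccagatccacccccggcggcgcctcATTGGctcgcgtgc
Cd36, chr5:17835897-17836146, minus strand: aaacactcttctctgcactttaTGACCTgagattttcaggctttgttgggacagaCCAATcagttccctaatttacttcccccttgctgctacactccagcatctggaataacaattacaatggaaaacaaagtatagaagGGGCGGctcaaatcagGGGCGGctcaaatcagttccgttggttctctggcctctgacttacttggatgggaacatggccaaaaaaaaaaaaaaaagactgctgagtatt

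The hexamer, searched on both strands in the 250 bases before each start, was found once in each of these 3 sequences and in none of the other 5 genes with an entry. It was present in 14% of 32851 such windows across the genome. In Plin2 and Cd36 it stands as its reverse complement TGACCT, starting 218 and 228 bases before the start site, and in Plin5 as AGGTCA, 170 bases before it. The pair AGGTCANAGGTCA, the form known as DR1, was in none of the 8 genes and in 0.0335% of all windows. GC boxes were found in 5 of the 8 genes and CCAAT boxes in 5 of the 8, against 32.7% and 33.8% of all windows. Lipe and Plin5 each had an additional start site and window, so counts of genes and shares of windows are unlike units. The Cd36 window shown lies inside the gene as placed by GENCODE M21, at 17781690 to 17888801 on chromosome 5. Sequence before that outer end was not searched, which is also so for Lipe and Plin3. The TATA box TATAAA was found in none of the 8, against 12.4% of all windows. The hexamer is contained in each copy of the pair, and a match of letters is a description only.

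Lpl had the strongest fall of the set. It was at 72.2 and 85.9 CPM in HDT libraries, against 509 and 560.4 CPM in vehicle libraries. Each vehicle library thus lay far above both HDT libraries, and the difference dwarfed the gap between mice of a group. The log2 fold change was -2.76 (SE 0.0939, 95% interval -2.98 to -2.54, limma adjusted p = 2.32e-06), a level 6.78-fold higher in vehicle than in HDT. A larger change in either direction was seen for 0.684% of tested genes. By CPM, Lpl ranked 1951 among all tested genes in HDT and 143 in vehicle. The gene lies on chromosome 8 at 68880491 to 68907448 (GRCm38).

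Lpl also lost weight within the set, a comparison that needs no scaling between libraries. It supplied 19.6% and 21.8% of the reads of the 10 genes in HDT libraries, against 52.6% and 54.0% in vehicle libraries. Pnpla2 took the first place in HDT, with 27.2% and 25.6% of these reads, against 14.2% and 13.2% in vehicle libraries. Shares depend on each other, so a smaller Lpl share raises those of other genes. Pnpla2 itself was called lower with TMM (log2 fold change -0.45). Cd36 supplied 13.2% and 11% in HDT and 12.5% and 13.6% in vehicle, and its groups overlapped on this measure.

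**Figure D2:**
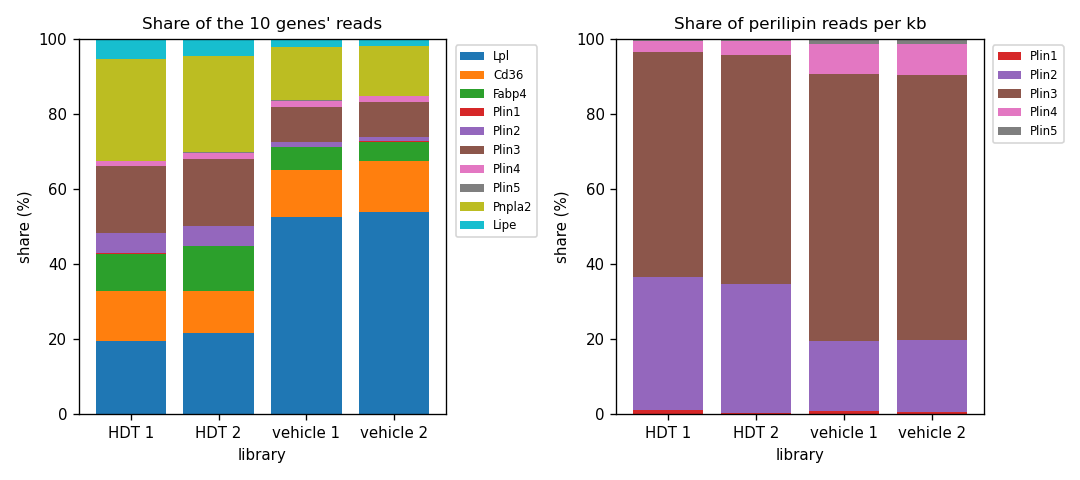
Left, share (%) of the 10 genes' reads supplied by each gene in the 4 libraries; right, share (%) of perilipin reads per kb of transcript supplied by each perilipin. Lpl supplies 19.6% and 21.8% of the reads in HDT libraries and 52.6% and 54.0% in vehicle libraries, while the Plin2 part of the perilipins is 35.4% and 34.4% in HDT and 18.8% and 19.3% in vehicle.

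Genes listed as partners of lipoprotein lipase, among them related lipases and a lipoprotein receptor, were called about as often as all tested genes. Of 14 listed partners, 13 were tested, 1 was higher and 4 lower in HDT, against 37.7% of all tested genes called, and 8 had no call, with a median log2 fold change of -0.31 (0.22 as deposited, with 5 higher and 2 lower). Without vehicle replicate 2 the lower partners numbered 2. Gpihbp1, which carries the enzyme to the capillary lumen, was at 2.78 and 3.11 CPM in HDT and 3.55 and 3.98 CPM in vehicle (limma adjusted p = 0.115). Angptl4, an inhibitor of the enzyme, was at 4.67 and 3.29 CPM in HDT and 5.17 and 4.24 CPM in vehicle (limma adjusted p = 0.346), with groups that overlapped.

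Reads of Lpl were 26.0 and 27.6 times those of Gpihbp1 in HDT libraries, against 143 and 141 times in vehicle libraries. The log2 ratio of Lpl to Gpihbp1 differed by -2.41 between the groups, and that of Lpl to Angptl4 by -2.51. An exact two-sided permutation test over 2 and 2 mice cannot go below 0.333, which is the p of both ratios, and 0.481 after adjustment over the 13 ratios examined. Apoc2, the cofactor that activates lipoprotein lipase, was the partner called higher, at 3.85 and 2.46 CPM in HDT against 0.767 and 0.377 CPM in vehicle. Its log2 fold change was 2.47 (SE 0.377, limma adjusted p = 0.00246). Among the factors that bring the enzyme to maturity, Sel1l of endoplasmic reticulum quality control fell by 0.42 and the maturation factor Lmf1 by 0.30 on the log2 scale (limma adjusted p = 0.00123 and 0.0209). Both had the opposite sign with the values as deposited, 0.12 and 0.23, and Lmf1 was called higher there (limma adjusted p = 0.0348). The call of Lmf1 as lower was lost with DESeq2 on recovered reads (adjusted p = 0.0574) and with a replicate block (limma adjusted p = 0.071). It was also lost without HDT replicate 2 (-0.25) or vehicle replicate 2 (-0.25).

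Cd36, the fatty acid uptake protein, fell with Lpl. It was at 48.5 and 43.2 CPM in HDT libraries and 121 and 141 CPM in vehicle libraries. The groups stood clear of each other, and the log2 fold change was -1.51 (SE 0.0916, limma adjusted p = 2.09e-05). CD36 is also made by capillary endothelium, and the endothelial adhesion gene Pecam1 was at 46.6 and 41.5 CPM in HDT and 33.5 and 40.2 CPM in vehicle (limma adjusted p = 0.0794, and 0.00846 without vehicle replicate 2). Other endothelial markers moved both ways. Of the 12 listed 5 were called lower, with log2 fold changes of -0.91 for Cldn5, -0.64 for Kdr, -0.44 for Flt1 and Egfl7 and -0.39 for Emcn. Cdh5 (0.32), Tie1 (0.22), Esam (0.12), Tek (0.11) and Robo4 (0.08) leaned the same way as Pecam1 and were not called. Cd36 had 1.04 reads for each read of Pecam1 in both HDT libraries, against 3.61 and 3.52 in vehicle libraries. The log2 difference of that ratio was -1.78 (exact permutation p = 0.333, the smallest possible).

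Fabp4, the fatty acid carrier of fat cells, macrophages and capillary endothelium, changed least firmly among the called genes. It was at 36.7 and 47.4 CPM in HDT libraries and at 59.0 and 53.1 CPM in vehicle libraries. The HDT values lay below the vehicle values, but the gap between the nearest values of the groups was smaller than that between the 2 HDT mice. The log2 fold change was -0.43 (SE 0.129, limma adjusted p = 0.044) with TMM and 0.11 with the values as deposited. Leaving out HDT replicate 1 ended the call (-0.23, limma adjusted p = 0.0878), as did leaving out vehicle replicate 1 (-0.35, 0.166) or vehicle replicate 2 (-0.51, 0.0601). Set against Cd36, Fabp4 gained: its reads were 0.755 and 1.10 times those of Cd36 in HDT libraries, against 0.487 and 0.376 times in vehicle libraries.

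Other genes of fatty acid uptake, binding and activation gave 7 lower and 0 higher of 16 tested, with 9 without a call. Of all tested genes 19.3% were lower and 18.4% higher. In the list none was higher at an unadjusted p under 0.05 in limma, and edgeR and DESeq2 on recovered reads also called 0 higher. The lower genes numbered 4 without HDT replicate 1 and 4 without vehicle replicate 2. The strongest falls were those of the binding protein genes Fabp3 and Fabp1, while the other tested binding protein genes, Fabp2 (-0.26), Fabp5 (0.07) and Fabp7 (-0.38), had no call. Fabp3, the heart-type carrier, was at 27.2 and 26.2 CPM in HDT against 208 and 206 CPM in vehicle, a log2 fold change of -2.95 (SE 0.0598, limma adjusted p = 1.17e-07). Fabp1, the liver-type carrier, was at 0.972 and 0.951 CPM in HDT against 8.35 and 6.07 CPM in vehicle (log2 fold change -2.86, limma adjusted p = 3.09e-05). The acyl-CoA synthetase and transporter gene Slc27a2 fell by 1.80 on the log2 scale (limma adjusted p = 0.00509). The list had a median log2 fold change of -0.35, and of 0.17 with the values as deposited, with 6 higher and 4 lower there.

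Of the 5 perilipin genes, Plin2 rose, Plin3, Plin4 and Plin5 fell and Plin1 had no call. Plin2, which coats droplets in most cell types, was at 19.9 and 20.5 CPM in HDT libraries and 12.5 and 13.4 CPM in vehicle libraries. Both HDT mice stood above both vehicle mice, and the log2 fold change was 0.64 (SE 0.0826, 95% interval 0.45 to 0.83, limma adjusted p = 0.000662), or 1.56-fold. With the values as deposited it was 1.17. Plin2 is on chromosome 4 at 86648386 to 86670060.

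Plin3, a relative that exchanges between cytosol and droplets, was at 65.3 and 70.4 CPM in HDT and 91.7 and 94.6 CPM in vehicle. Its groups did not overlap, and its log2 fold change was -0.46 (SE 0.065, limma adjusted p = 0.00106) with TMM and 0.07 with the values as deposited (limma adjusted p = 0.324). The ratio between the pair needs no scaling: Plin2 had 0.305 and 0.291 reads for each read of Plin3 in HDT libraries, against 0.137 and 0.142 in vehicle libraries. The log2 difference was 1.10, with an exact permutation p of 0.333.

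Plin4 and Plin5, neighbours on chromosome 17 at 56100591 to 56109803 and 56111601 to 56117596, both fell. Plin4, a long perilipin known from fat cells and muscle, was at 4.92 and 6.93 CPM in HDT libraries and 15.8 and 17.4 CPM in vehicle libraries. Its groups were well apart, and its log2 fold change was -1.50 (SE 0.165, limma adjusted p = 0.000469). Plin5 was a rare transcript, with 10 and 12 reads in HDT libraries and 33 and 36 reads in vehicle libraries, or 0.194 and 0.238 CPM in HDT against 0.937 and 1.05 CPM in vehicle. Its log2 fold change of -2.10 had a wider error than that of the other called genes (SE 0.323, 95% interval -2.85 to -1.35, limma adjusted p = 0.00158). For each read of Plin2 there were 0.00978 and 0.0116 reads of Plin5 in HDT, against 0.0748 and 0.0781 in vehicle, a log2 difference of -2.84.

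Plin1, the fat cell perilipin, had 50 and 10 reads in HDT libraries and 30 and 22 reads in vehicle libraries. These are 0.972 and 0.198 CPM in HDT and 0.852 and 0.639 CPM in vehicle, so the HDT mice enclosed the vehicle mice. No difference was detectable at this depth and spread (log2 fold change -0.70, 95% interval -2.52 to 1.12, limma adjusted p = 0.495). A single library set the value: without HDT replicate 1 it was -1.78 and without HDT replicate 2 it was 0.40, each with 1 HDT mouse, which has no spread of its own. Per kb of transcript, Plin3 supplied 60.2% and 61.2% of the perilipin reads in HDT, against 71.2% and 70.5% in vehicle, and stayed the first of the family. Plin2 came next, with 35.4% and 34.4% in HDT against 18.8% and 19.3% in vehicle, while Plin1, Plin4 and Plin5 each supplied at most 8.23%.

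**Figure D3:**
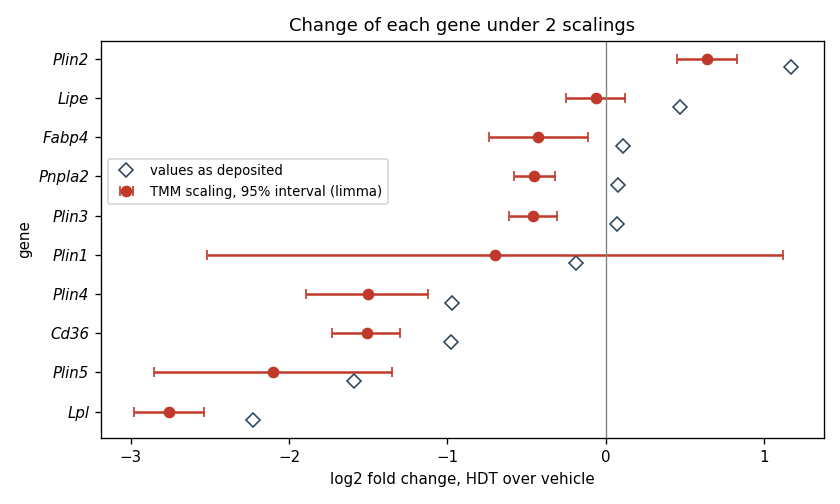
Log2 fold change of HDT over vehicle for each gene with TMM scaling (circles, bars for the 95% interval of limma) and with the values as deposited (diamonds). Plin2 lies above 0 and Lpl, Plin5, Cd36 and Plin4 below 0 under both scalings, while Plin3, Pnpla2, Fabp4 and Lipe cross to the other side.

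Of the intracellular lipases, Pnpla2 fell modestly and Lipe had no call. Pnpla2, adipose triglyceride lipase, was at 100.2 and 101 CPM in HDT libraries and 138 and 137 CPM in vehicle libraries. Mice of a group were almost equal. The log2 fold change was -0.45 (SE 0.0575, limma adjusted p = 0.000619) with TMM, whereas it was 0.08 (limma adjusted p = 0.279) with the values as deposited. Lipe, hormone-sensitive lipase, was at 19.6 and 18.1 CPM in HDT and 19.9 and 19.5 CPM in vehicle, with groups that overlapped. Its log2 fold change was -0.06, with a 95% interval of -0.25 to 0.12 (limma adjusted p = 0.569), but 0.47 with the values as deposited, where it was called higher (limma adjusted p = 0.00105). An exon of 4732471J01Rik on the opposite strand shares 453 bases with Lipe, and that gene had 1075 reads over the 4 libraries. With the strand setting unknown, reads of the pair cannot be told apart there. Relative to Pnpla2, Lipe had 0.195 and 0.180 reads per read in HDT and 0.144 and 0.142 in vehicle, a log2 difference of 0.39.

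Of 12 tested partners of these lipases, 2 were lower, 0 higher and 10 without a call, against 19.3% of all tested genes lower and 18.4% higher. Their median log2 fold change was -0.19 (0.34 as deposited, with 6 higher and 0 lower). With TMM no partner was higher at an unadjusted p under 0.05 in limma, nor called higher by edgeR or DESeq2 on recovered reads. Without HDT replicate 1, vehicle replicate 1 or vehicle replicate 2 the lower partners numbered 1. Abhd5, the coactivator of adipose triglyceride lipase, was at 46.5 and 50.7 CPM in HDT and 58.5 and 52.9 CPM in vehicle (limma adjusted p = 0.0788). G0s2, its inhibitor, was at 0.992 and 1.05 CPM in HDT and 1.39 and 1.05 CPM in vehicle (limma adjusted p = 0.482). Pnpla2 had 2.16 and 1.98 reads per read of Abhd5 in HDT, against 2.36 and 2.58 in vehicle. The carboxylesterase gene Ces1d fell to 11.9 and 12.5 CPM in HDT, against 21.2 and 18.6 CPM in vehicle (log2 fold change -0.71, limma adjusted p = 0.000766), and was not called with the values as deposited (-0.18). The monoglyceride lipase gene Mgll was called lower with a log2 fold change of -0.22 (limma adjusted p = 0.0477). With the values as deposited Mgll was called higher (0.32, limma adjusted p = 0.00269). Its call as lower was lost with edgeR (adjusted p = 0.0666) and DESeq2 (adjusted p = 0.0603) on recovered reads. Upper-quartile scaling, no low-value filter and a replicate block also ended it. The call was lost without HDT replicate 1 (-0.12) and without either vehicle replicate (-0.21 and -0.23).

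**Figure D4:**
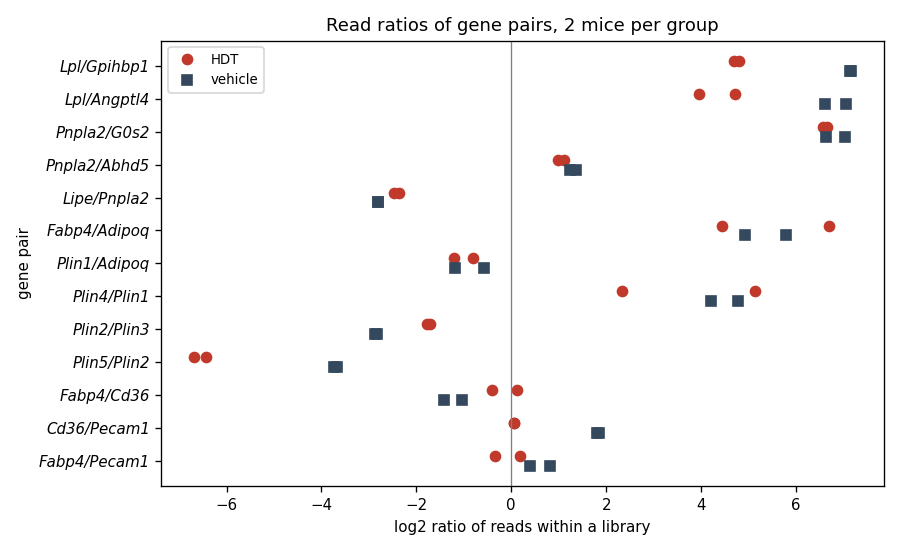
Log2 ratio of reads of 2 genes within each library, for 13 pairs, with 2 HDT libraries (circles) and 2 vehicle libraries (squares). The ratios of Lpl to Gpihbp1 and of Plin5 to Plin2 differ by -2.41 and -2.84 between the groups, while those of Plin1 and Fabp4 to Adipoq overlap.

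Genes that build droplets and make triglyceride moved both ways. Among 12 tested genes of droplet formation, 2 were higher, 5 lower and 5 without a call, against 18.4% of all tested genes higher and 19.3% lower. Their median log2 fold change was -0.31 (0.22 as deposited, with 7 higher and 2 lower). The higher genes numbered 0 without HDT replicate 2 and 1 without any other single library, and the lower genes 3 without vehicle replicate 2. Fitm2, which partitions triglyceride into droplets, was at 19.4 and 19.7 CPM in HDT against 32.5 and 32.2 CPM in vehicle (log2 fold change -0.73, limma adjusted p = 0.000138). Mettl7b, a droplet-associated methyltransferase-like gene, fell by 1.56 on the log2 scale (limma adjusted p = 0.00589). Cidea, which enlarges droplets, was at 2.82 and 2.75 CPM in HDT and 1.96 and 1.34 CPM in vehicle (log2 fold change 0.78, limma adjusted p = 0.0262). It lost its call without HDT replicate 1 (0.76), HDT replicate 2 (0.81) or vehicle replicate 2 (0.50).

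Of 17 tested genes of triglyceride and sterol ester synthesis, 2 were higher, 5 lower and 10 without a call, against 37.7% of all tested genes called. Their median log2 fold change was -0.10 (0.43 as deposited, with 10 higher and 1 lower). Without vehicle replicate 1 the higher genes numbered 1. Gpam, a glycerol-3-phosphate acyltransferase of mitochondria that starts the pathway, was at 11.5 and 9.0 CPM in HDT against 26.2 and 33.1 CPM in vehicle (log2 fold change -1.53, limma adjusted p = 0.000609). Lpin1, a phosphatidate phosphatase, fell by 0.68 on the log2 scale (limma adjusted p = 0.0111), a call that ended without HDT replicate 2 (-0.59) and with the values as deposited (-0.15). Mogat2, a monoacylglycerol acyltransferase, was at 2.68 and 3.03 CPM in HDT against 1.25 and 1.19 CPM in vehicle (log2 fold change 1.21, limma adjusted p = 0.0016).

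Of 16 regulators and targets of the PPAR and C/EBP factors, 2 were higher, 3 lower and 11 without a call, against 37.7% of all tested genes called. Their median log2 fold change was 0.01 (0.52 as deposited, with 10 higher and 1 lower). Without HDT replicate 1 there was 1 higher and 1 lower. The coactivator gene Ppargc1a was at 8.30 and 7.89 CPM in HDT against 40.7 and 27.3 CPM in vehicle (log2 fold change -2.04, limma adjusted p = 0.000646), and without HDT replicate 1 its adjusted p was 0.055. Cebpa, a transcription factor of fat cell and macrophage differentiation, was at 17.6 and 17.0 CPM in HDT against 10.7 and 10.8 CPM in vehicle (log2 fold change 0.68, limma adjusted p = 0.000548). Pdk4, a kinase gene under PPAR control, fell by 0.51 on the log2 scale (limma adjusted p = 0.00445), which was 0.03 with the values as deposited.

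**Figure D5:**
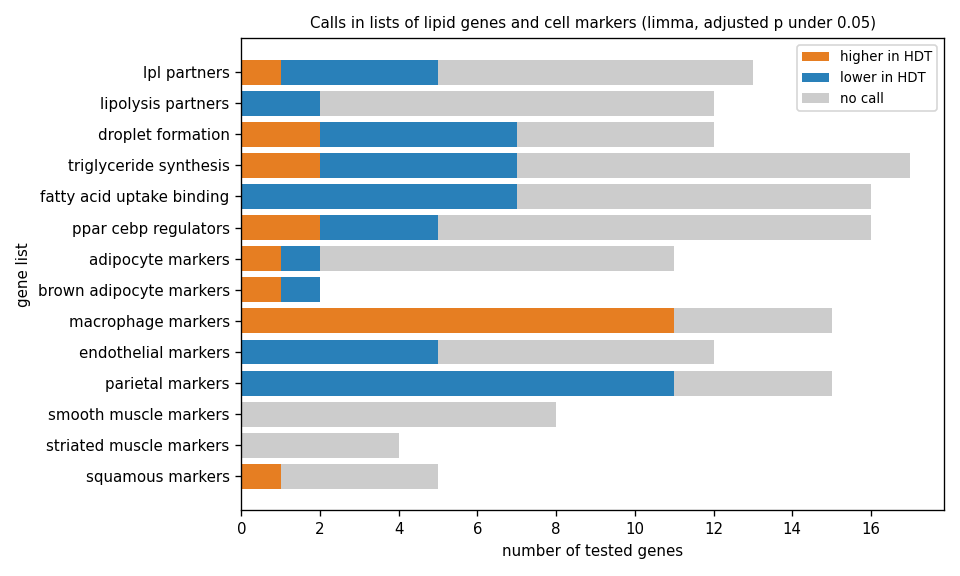
Number of tested genes called higher, called lower or without a call in HDT (limma, adjusted p under 0.05), for each list of lipid genes and of cell type markers. Fatty acid uptake and binding has 7 lower and 0 higher of 16, macrophage markers 11 higher of 15 and parietal cell markers 11 lower of 15. Of all tested genes 18.4% were higher and 19.3% lower.

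Markers of other cell types moved beside these genes, and their part in the changes was not tested. Of 11 tested fat cell markers 1 was higher and 1 lower, against 37.7% of all tested genes called. Their median log2 fold change was -0.63 (-0.1 as deposited, with 1 higher and 0 lower). The 12 listed fat cell markers summed to 89.4 and 73.8 CPM in HDT and 93.1 and 82.3 CPM in vehicle, with none at 0 in all libraries. Of these sums Lgals12, the marker called higher, made up 50.9 and 45.8 CPM in HDT and 36.0 and 38.9 CPM in vehicle. The lower markers numbered 5 without HDT replicate 1 and 0 without either vehicle replicate. The defining fat cell gene Adipoq was at 1.69 and 0.456 CPM in HDT and 1.93 and 0.958 CPM in vehicle, Retn at 0.311 and 0.178 CPM in HDT and 0.596 and 0.377 CPM in vehicle, and Lep had at most 0.0852 CPM in any library. Adipoq and Cfd, at 7.47 and 2.06 CPM in HDT and 7.61 and 5.98 CPM in vehicle, were high in HDT replicate 1 and low in HDT replicate 2, as was Plin1. Neither was called. Without HDT replicate 1 the log2 fold changes were -1.53 for Adipoq and -1.69 for Cfd, but HDT was then 1 mouse, with no spread of its own. Plin1 had 0.575 and 0.435 reads per read of Adipoq in HDT and 0.441 and 0.667 in vehicle. Fabp4 had 21.7 and 104 reads per read of Adipoq in HDT and 30.6 and 55.5 in vehicle. The groups overlapped for both ratios. Of the other fat cell markers, Acvr1c was called lower (log2 fold change -0.63, limma adjusted p = 0.0298) and Lgals12 higher (0.37, 0.00736). Acvr1c kept its call without HDT replicate 1 alone among the fits with 1 library left out. Of 6 markers of brown fat 2 were tested, and the 6 summed to 6.47 and 7.13 CPM in HDT and 52.1 and 49.9 CPM in vehicle. Cox7a1, a respiratory chain subunit of muscle and other oxidative tissue, made up 3.48 and 4.24 CPM of that sum in HDT, where Cidea gave most of the rest, and nearly all of it in vehicle, at 49.8 and 48.3 CPM. It had a log2 fold change of -3.67 (limma adjusted p = 8.57e-07), while the defining gene Ucp1 had at most 0.0284 CPM.

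Parietal cell markers had 11 of 15 called lower and 0 higher (3 higher and 8 lower as deposited), with 1 higher at an unadjusted p under 0.05, 1 with DESeq2, 0 with edgeR and 1 without HDT replicate 1. For comparison with each marker list, 18.4% of all tested genes were called higher by limma with TMM and 19.3% lower. Slc26a7 and Esrrb, an anion exchanger and an oestrogen-related receptor, fell by 3.66 and 3.31 on the log2 scale (limma adjusted p = 8.58e-05 and 3.4e-06). Of 15 macrophage markers 11 were higher and 0 lower in limma, also 0 lower at an unadjusted p under 0.05 and by edgeR and DESeq2. The list summed to 525 and 432 CPM in HDT and 222 and 235 CPM in vehicle. Gpnmb and Trem2, genes of lipid-laden macrophages, had log2 fold changes of 4.34 and 2.02 (limma adjusted p = 0.000128 and 3.46e-05), and without vehicle replicate 2 the adjusted p of Gpnmb was 0.05, which missed the call. Endothelial markers summed to 193 and 173 CPM in HDT and 179 and 213 CPM in vehicle, with 5 of 12 lower and 0 higher in limma (2 higher at an unadjusted p under 0.05, 0 by edgeR and DESeq2). The direction rests on the scaling: with the values as deposited 6 were higher and 0 lower, and with upper-quartile scaling 2 were higher and 5 lower. The lower ones included Kdr, a VEGF receptor (log2 fold change -0.64, limma adjusted p = 0.00235), and Cldn5, a tight junction gene (-0.91, 0.0417), and neither passed with the values as deposited. Without HDT replicate 2 there was 1 lower, and without vehicle replicate 2 there were 3 lower and 2 higher. Cldn5 was not called without vehicle replicate 2 (-0.48) or either HDT replicate (-0.85 and -0.96). Of 8 smooth muscle markers 0 were called in limma and 1 was lower at an unadjusted p under 0.05, by edgeR, by DESeq2 and without vehicle replicate 2, while a crossed replicate block, added after seeing the data, called 1 higher and 5 lower. Of 4 tested markers of striated muscle 0 were called in limma, by edgeR, by DESeq2 or at an unadjusted p under 0.05, and 1 was higher without HDT replicate 1. Of 5 tested markers of squamous epithelium 1 was higher, and 2 were higher and 1 lower without vehicle replicate 2.

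Per kb of transcript, a scale on which levels of different genes can be compared, the order of the genes differed between the groups. In HDT the order was Pnpla2 at 55.8, Fabp4 at 46.9, Lpl at 19.2, Plin3 at 18.6 and Cd36 at 13.5 CPM per kb, on group means. In vehicle it was Lpl at 130.0, Pnpla2 at 76.3, Fabp4 at 62.6, Cd36 at 38.6 and Plin3 at 25.5 CPM per kb. Plin2 followed at 10.7 CPM per kb in HDT and 6.86 CPM per kb in vehicle, then Lipe at 5.21 in HDT and 5.44 in vehicle and Plin4 at 1.03 in HDT and 2.89 in vehicle. Plin1 and Plin5 closed both orders, at 0.208 and 0.109 CPM per kb in HDT and 0.265 and 0.499 CPM per kb in vehicle. Transcript lengths were those of the longest principal transcript in GENCODE M21, and the isoforms made in this tissue were not measured.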

How the data were processed

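The deposited table holds 52125 gene rows and 4 library columns, and 23219 rows are 0 throughout. The tools listed are edgeR, featureCounts, Subread 2.0.0 and STAR 2.7.1a, with builds GRCm38 and mm10, per the submitters' processing notes. Annotation, strand setting and normalization were not given in the sources used here. All values that the authors deposited are a normalized signal: in each library 100% of values above 0 are whole reads times 1 factor, within 0.011. Dividing by it gave the recovered reads.

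Genes were kept by filterByExpr in edgeR 4.0.16 (18285 genes). Values were scaled by each column's total and its TMM factor (1.219 and 1.183 for HDT, 0.848 and 0.818 for vehicle) and transformed as log2(value + 1). Fold changes are on that log2(value + pseudocount) scale and are understated for low genes. limma 3.58.1 with trend and robust moderation compared HDT with vehicle, two-sided, with Benjamini-Hochberg adjustment over all tested genes, and was checked on simulated data. Since each label names 1 mouse, p-values rest on the spread between mice, which limma draws towards that of other genes. The closeness of the mice in a group thus sets only part of a gene's SE. Alternatives were other scalings, filters, pseudocounts, a replicate block, libraries left out, edgeR and DESeq2 1.42.0 on recovered reads. edgeR called 6768 genes and limma 6889, with 6669 shared in the same direction. The 10 genes and the lists were chosen with earlier results of these data known. Besides the 10 genes, the text names the 3 (markers: 2) most changed called genes of each list with at least 1 CPM, genes of the fixed ratios and defining fat cell markers. Ucp1, 4732471J01Rik, Car2, Atp4a and Atp4b were named after their values were seen. So were the binding protein genes without a call and the endothelial markers other than Pecam1, Kdr and Cldn5. Promoters are from RefSeq, positions and lengths from GENCODE M21.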

Additional observations from a re-analysis of the deposited data

How the results depend on the processing

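Lpl, Cd36, Plin2, Plin4 and Plin5 kept their direction and call in every alternative that gave them a value, and with a filter of 1 CPM Plin5 and Plin1 were not tested. Over the fits with 1 library left out, the log2 fold change ranged from -2.87 to -2.63 for Lpl, from 0.59 to 0.68 for Plin2, from -0.60 to -0.23 for Fabp4, from -1.78 to 0.40 for Plin1, from -0.11 to 0.01 for Lipe, from -1.53 to 0.32 for Adipoq, from -1.69 to 0.16 for Cfd and from -0.50 to 0.01 for Angptl4. With the values as deposited 11483 genes were higher and 998 lower in HDT, and 2 of the 10 genes were higher and 4 lower; the common shift of 0.526 is given with the libraries. There Plin3 (0.07), Pnpla2 (0.08), Fabp4 (0.11), Lipe (0.47), Sel1l (0.12), Lmf1 (0.23), Mgll (0.32), Pdk4 (0.03), Gpihbp1 (0.18), Angptl4 (0.27), G0s2 (0.29) and Abhd5 (0.33) changed sign. Without HDT replicate 2 Adipoq, Cfd, Angptl4, Lipe and Plin1 did, at the upper ends of their ranges. Fabp4 was not called with upper-quartile scaling (-0.39, limma adjusted p = 0.0622), without a low-value filter (-0.41, 0.0523) or with the replicate block (-0.43, 0.0681). The block left 2359 higher and 2623 lower genes and changed no other call of the 10 genes. Deviations of same-numbered libraries correlated at -0.142 over all tested genes and at -0.351 over those with a mean of at least 100 reads. These values show no common shift of same-numbered mice. With 1 difference per group they cannot settle whether such mice were handled together. A crossed pairing, added after seeing the data, gave 4202 higher and 4323 lower genes. It gave 1 higher and 5 lower among smooth muscle markers and 3 higher and 5 lower among endothelial markers. With 10 to 50 reads, Plin1 and Plin5 are limited by depth.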
